A study of Mus spretus with 8 samples.

Results

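The interferon response genes are the transcription factors, sensors, antiviral proteins, immunity-related GTPases and chemokines that cells switch on after an interferon signal. A list of 39 such genes was chosen by symbol, and 38 of them had at least 1 probe among the 22471 genes with a symbol on the array. Ifi44 was not listed in the annotation table used here. Where a gene had several probes, the brightest on average was taken. The animals were male Mus spretus of the SPRET/EiJ strain, an inbred line of a wild mouse species, and were 7 weeks old when the diets began. For 30 days, 4 mice received Harlan feed carrying p,p'-DDE at 450 mg/kg in corn oil, and 4 controls received Harlan feed and corn oil. p,p'-DDE is the long-lived breakdown product of the insecticide DDT. The RNA of each liver was hybridised to its own 1-colour array, so n = 4 livers per group throughout, and the labels name no genetic change in any animal. The small number of arrays limits the precision of every comparison.

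Type I interferons act through a receptor and the kinases Jak1 and Tyk2 on a complex of STAT proteins with Irf9, which binds the promoters of antiviral genes. Interferon gamma uses a separate receptor and mainly induces Irf1, the immunity-related GTPases and chemokines such as Cxcl9. In liver, hepatocytes, Kupffer cells and endothelium can all respond, and Kupffer cells and recruited leukocytes can make the signal.

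Values are log2 signals, and a difference of 1 is a doubling of the signal. The background level of an array, taken from probes of olfactory and vomeronasal receptors, lay between 7.55 and 7.81. Patches of spots that deviated together, called stained here, covered from 0.521% of the spots on the array of DDE 1 to 9.50% on that of control 4, and 7.59% on that of DDE 4. The hepatocyte gene Alb had 15.97 in controls and 15.98 after DDE, near the highest value of 16. Of the 38 interferon genes, 26 were above background in all 8 livers, and Oas3 was above it in 0 of 8. Values near background place a gene only at or below that level, and signals are not compared between genes, because each probe has its own brightness.

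**Figure D1:**
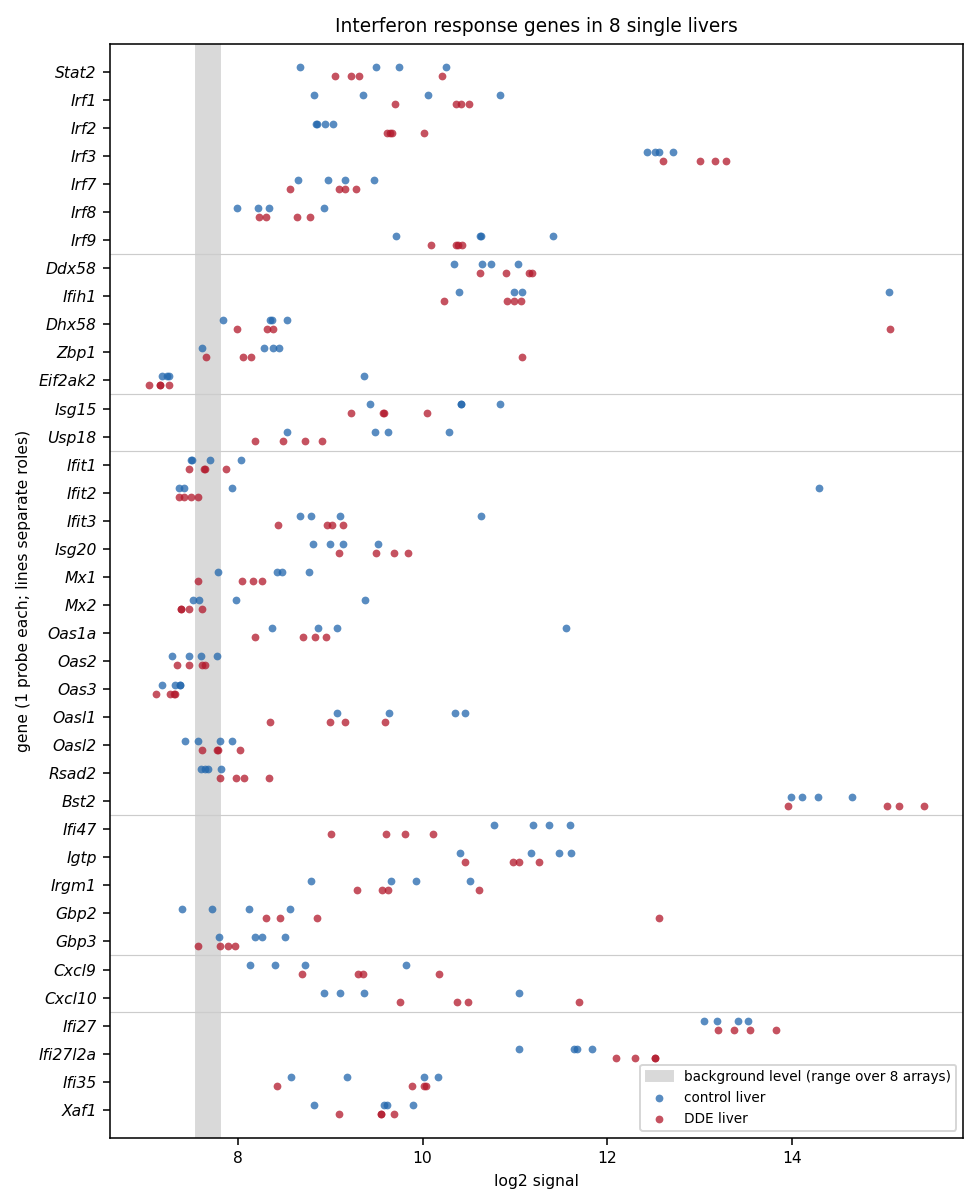
Log2 signal of 38 interferon response genes (rows, grouped by role) in 4 control livers (blue) and 4 DDE livers (red), 1 point per liver, with the range of the background level over the arrays in grey. Most genes show overlapping groups, Irf2 and Ifi27l2a lie higher and Ifi47 lower in all 4 DDE livers, and lone points above 11 stand apart for Ifih1, Dhx58, Zbp1, Ifit2, Oas1a and Gbp2.

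Single livers of 1 group differed widely in these genes. Among controls, the gap between the lowest and the highest liver ranged from 0.18 for Irf2 to 6.93 for Ifit2, with a median of 1.03, and 19 of the 38 genes spanned more than 1. Among DDE livers the gap ranged from 0.20 for Oas3 to 7.07 for Dhx58, with a median of 0.72, and 11 genes spanned more than 1. The largest gaps came from single spots rather than from an ordered spread.

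In 7 of the 38 genes, 1 array lay more than 2 away from the median of the other 7. Across all genes this held for 15.5%. For Ifit2, an RNA-binding protein that blocks translation, control 4 had 14.29 while the other 7 livers had 7.36 to 7.94. Dhx58, the regulatory helicase LGP2, had 15.06 in DDE 4 against 7.84 to 8.53 elsewhere. Ifih1, the long double-stranded RNA sensor MDA5, had 15.05 in control 2 against 10.23 to 11.08. All 3 of these spots lay in stained patches, where the median deviation of the surrounding spots was 3.20, 1.40 and 3.59.

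The other 4 genes of this kind had smaller departures. Oas1a, an oligoadenylate synthetase, had 11.55 in control 1 against 8.19 to 9.07. Zbp1, a sensor of Z-form nucleic acid, had 11.08 in DDE 3 against 7.61 to 8.45. Eif2ak2, the kinase PKR that halts translation, had 9.37 in control 4 against 7.04 to 7.26, so it was above background in that liver alone. These 3 spots were stained too. Gbp2, a guanylate-binding protein, had 12.56 in DDE 4 against 7.40 to 8.86, and this spot was in no stained patch, with a median deviation of 0.08 around it. Of the 9 such values at all 57 probes of the members, 8 were on stained spots. The second probes of Ifih1, Oas1a and Zbp1 did not follow: they read 7.38 in control 2, 7.66 in control 1 and 7.38 in DDE 3, all near background, where a rise could be missed.

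Spread was then summarised over the genes with signal. For the 26 genes above background in all 8 livers, the median SD was 0.57 among controls and 0.34 among DDE livers. For all 8542 genes above background in all 8 livers it was 0.34 and 0.30. With lone spots left out the member values were 0.43 and 0.33, and with stained spots left out they were 0.37 and 0.33, beside 0.30 and 0.29 for all such genes. Without control 4 the control value fell to 0.31, beside 0.23 for all such genes, and without DDE 4 the DDE value fell to 0.24, beside 0.20. The difference in spread between the groups was not tested.

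**Figure D2:**
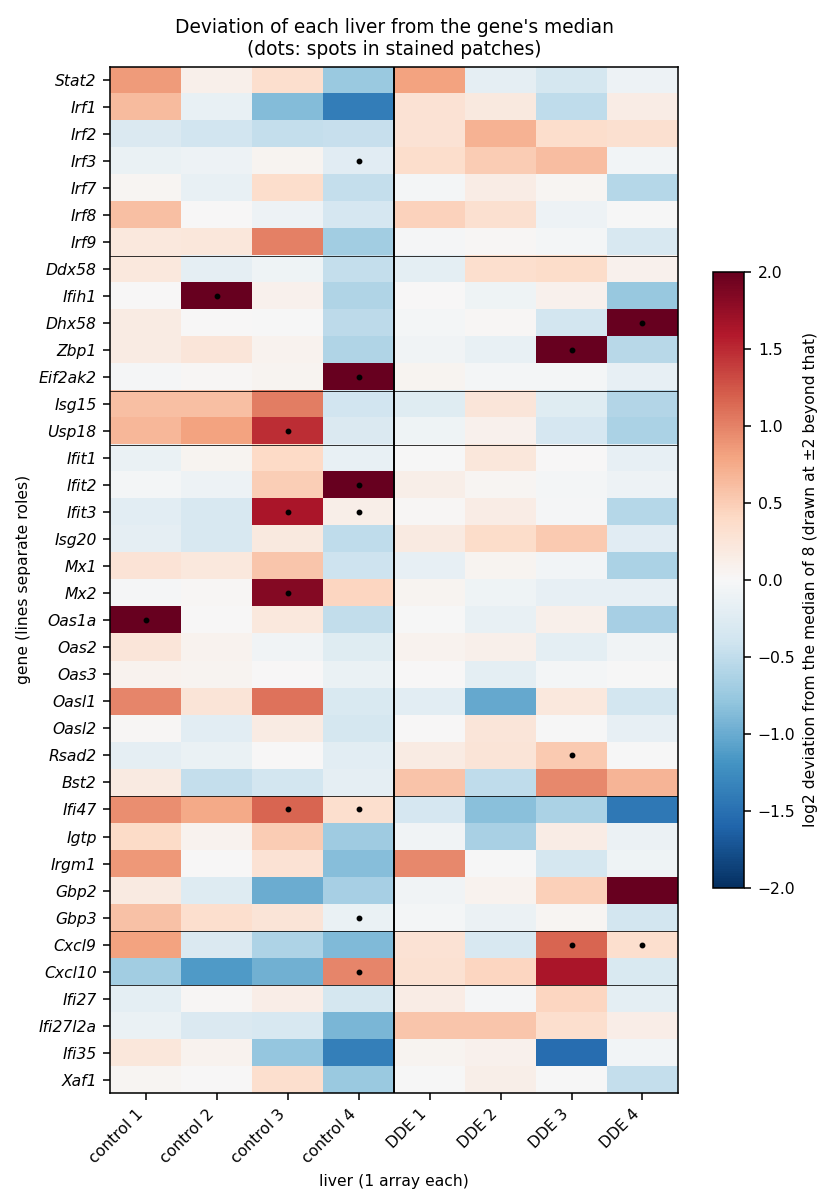
Deviation of each liver (columns) from the gene's median over all 8 livers on the log2 scale, for 38 interferon response genes (rows), with colours drawn at the limit beyond 2 in either direction and dots on spots in stained patches. Control 4 is blue in most rows, control 3 is red for Irf9, Isg15, Usp18, Ifit3, Mx2 and Ifi47, and single dark red cells mark the lone high spots.

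The livers differed in a pattern shared by many of the genes. Control 4 was the lowest of the 4 controls in 30 of 38 genes (78.9%), against 44.6% of all genes. Among genes above background in all livers it was lowest in 22 of 26 members and in 68.9% of 8542 genes, so low values on this array are common for bright probes in general. DDE 4 was the lowest DDE liver in 22 of 38 members (57.9%), against 42.2% of all genes, and in 14 of 26 members above background against 51.1%.

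The highest control was nearly always control 1 or control 3. Control 3 was highest for 17 genes (44.7%, against 25% of all genes), among them Irf7, Irf9, Isg15, Usp18, Ifit1, Ifit3, Mx1, Mx2, Oasl1, Oasl2 and Xaf1. Control 1 was highest for 16 genes (42.1%, against 32.4%), among them Stat2, Irf1, Irf8, Irgm1, Gbp2, Gbp3, Cxcl9 and Ifi35. Both lists were read off after the values were seen, and no test was made. Among genes above background in all livers, control 3 was highest in 12 of 26 members, against 29.1% of all such genes. Control 1 was highest in 12 of the 26, against 38.5%. Of the control 3 values, those of Usp18, Ifit3, Mx2 and Ifi47 were on stained spots, while those of Irf7, Irf9, Isg15, Mx1, Oasl1 and Xaf1 were not.

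Igtp, a GTPase of the interferon gamma response, was measured by 10 probes, which shows how far spots on 1 array can differ. In control 1 the 10 probes ran from 11.12 to 11.56 and in DDE 1 from 10.70 to 11.18. In control 4 they ran from 9.55 to 11.09 and in control 3 from 10.68 to 11.84. The span within the array of control 4, 1.54, was larger than the 1.13 between the highest and lowest liver means of these probes. In control 4, 2 of the 10 spots were stained. Whether the probes repeat 1 sequence or differ was not examined.

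**Figure D3:**
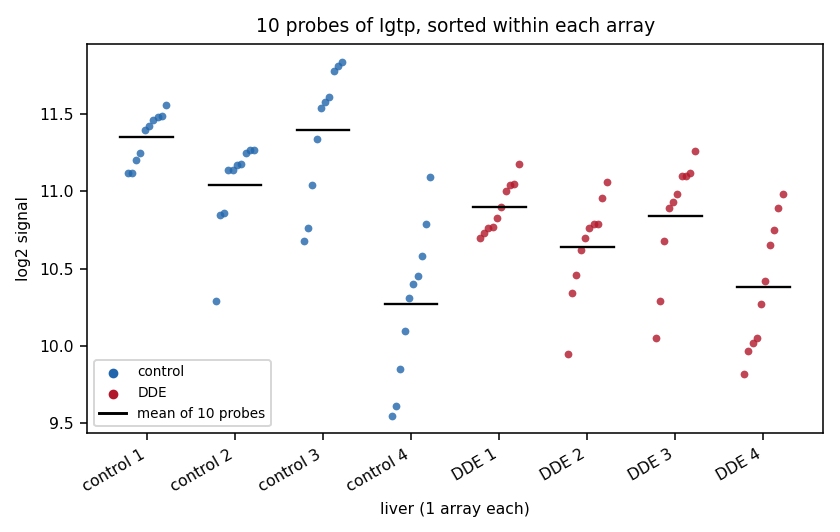
Log2 signal of the 10 Igtp probes on each of the 8 arrays (blue control, red DDE), sorted within an array, with the mean as a black line. The spots are tight on the arrays of control 1 and DDE 1 and spread over 1.54 on that of control 4, and 9 of 10 probes had a lower mean after DDE.

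The comparison of 4 DDE with 4 control livers asks whether dietary p,p'-DDE changed the expression of these genes in whole liver, where fewer cells of a type and less RNA per cell cannot be told apart. Of 38 genes, Irf2 rose and Ifi47 fell past an adjusted p of 0.05, and 36 did not pass (limma, p adjusted over all 42957 probes). Among all 22471 genes the same rule called 2.58% higher and 0.774% lower. Before adjustment, a p under 0.05 was reached by 4 members that were higher and 2 that were lower, against 11.4% and 4.57% of all genes. The groups did not overlap in 2 higher and 1 lower member, against 8.48% and 4.06% of all genes. Each of these counts is near what those shares give for a list of this size. The mean difference was positive in 18 genes and negative in 20, with a median of -0.01, and the median over all genes was 0.015. Over the 8542 genes above background in all 8 livers the median was 0.14. The median over the 26 members above background in all 8 livers was not computed. The members' median was -0.02 under both quantile normalization and 75th percentile centring, and 0.10 with dim probes left out. Over 19 alternatives it ran from -0.10 without control 4 to 0.10 without control 1, so its sign was not settled.

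**Figure D4:**
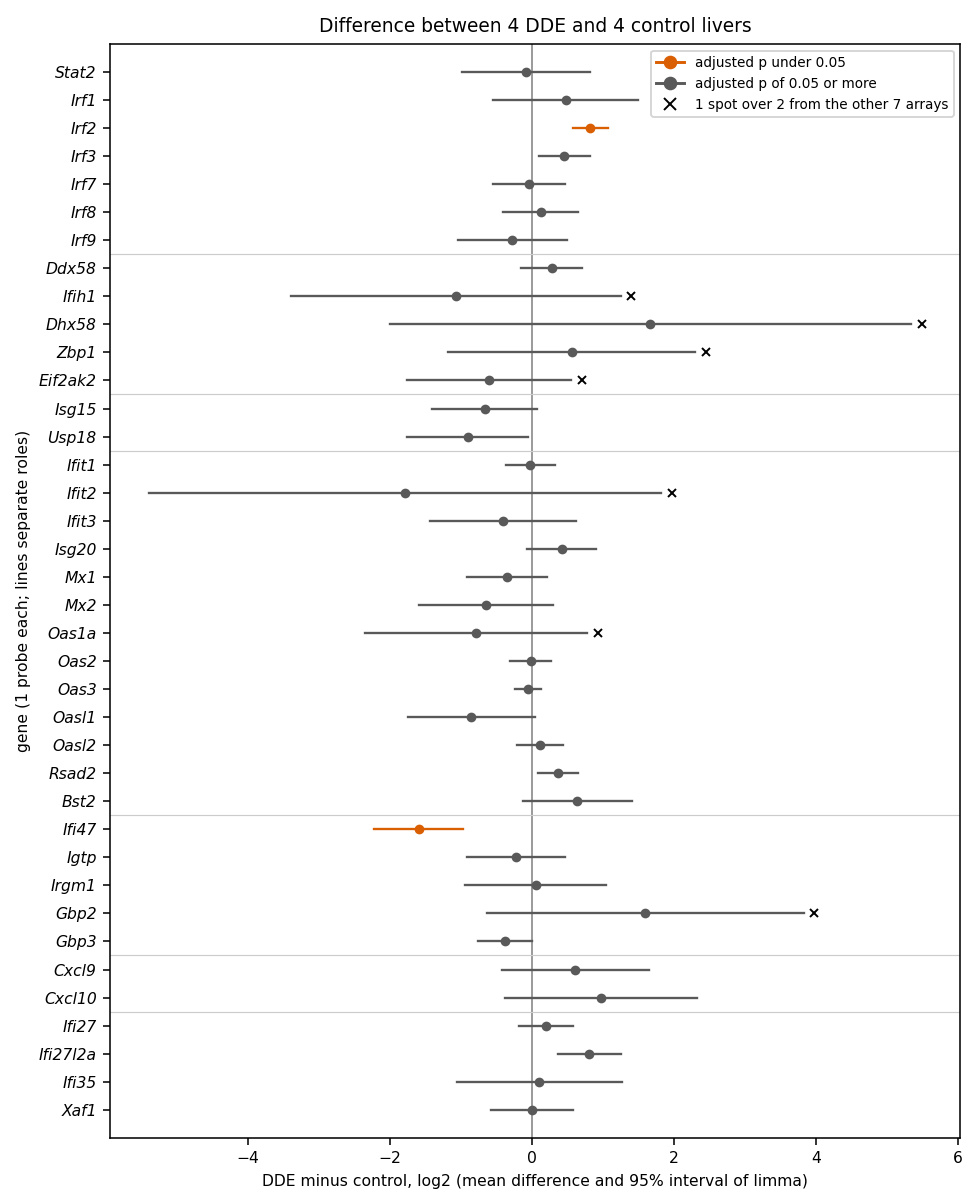
Mean difference between 4 DDE and 4 control livers on the log2 scale with its 95% interval from limma, for 38 interferon response genes in rows grouped by role. Irf2 (0.82) and Ifi47 (-1.60) passed the threshold and are drawn in orange, and crosses mark the 7 genes with a lone spot, 6 of which have intervals wider than 3.

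Transcription factors of the response included the 1 member that rose. Irf2, which binds the same DNA element as Irf1 and mostly opposes it, had 9.03, 8.94, 8.85 and 8.86 in controls 1 to 4 and 9.62, 10.02, 9.67 and 9.65 in DDE livers 1 to 4. The groups were 0.59 apart at their nearest, and controls of this gene had the smallest range of all 38. Irf2 went from 8.92 ± 0.084 to 9.74 ± 0.19 (SD, n = 4), 1.77-fold higher (adjusted p = 0.0139, 95% interval of the log2 difference 0.57 to 1.07). It passed in 18 of 19 alternatives, the exception being the replicate block (adjusted p = 0.0818).

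Irf3, the factor that starts interferon beta transcription in infected cells, had 12.52, 12.56, 12.71 and 12.43 in controls and 13.00, 13.16, 13.28 and 12.60 after DDE. Only DDE 4 lay among the controls, and the difference of 0.46 did not pass (adjusted p = 0.199). It passed in 1 of 19 alternatives, without DDE 4 (0.59, adjusted p = 0.0328). The spot of control 4 was stained, and with stained spots left out the difference was 0.41 (adjusted p = 0.279). Irf9, the DNA-binding partner of the STAT complex, had 10.62, 10.63, 11.41 and 9.71 in controls and 10.36 to 10.43 in DDE livers 1 to 3, with 10.09 in DDE 4. The DDE livers thus lay within the control range, and the mean difference was -0.28 (interval -1.05 to 0.49).

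The remaining factors had overlapping groups. Irf1, the main transcription factor of the interferon gamma response, had 10.84, 10.06, 9.35 and 8.83 in controls and 10.50, 10.41, 9.70 and 10.36 after DDE, a difference of 0.47 with an interval from -0.55 to 1.49. Control 1 was the highest of all 8 livers and control 4 the lowest. Stat2, the STAT protein specific to the type I pathway, differed by -0.09 (interval -0.99 to 0.81). Irf7, which amplifies interferon alpha production, differed by -0.04 (interval -0.56 to 0.47), and Irf8, a factor of myeloid cells, by 0.12 (interval -0.40 to 0.64). These intervals do not show equal levels, as the widest of the 4 spans 2.04 for Irf1.

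Among sensors of foreign nucleic acid, 0 of 5 passed. Ddx58, the RNA helicase RIG-I, had 11.03, 10.64, 10.74 and 10.34 in controls and 10.62, 11.15, 11.18 and 10.90 after DDE, a difference of 0.28 (interval -0.15 to 0.70). It was the only sensor without a lone spot at its brightest probe. Its second probe had a stained lone spot in control 4 and was otherwise near background, and the mean of both probes turned the difference to -0.22 (adjusted p = 0.694). The differences of Ifih1 (-1.08), Dhx58 (1.67), Zbp1 (0.56) and Eif2ak2 (-0.61) each rest on 1 stained spot. With lone spots left out they were -0.02 for Ifih1, -0.04 for Dhx58, -0.23 for Zbp1 and -0.07 for Eif2ak2, and 0 of them passed (limma).

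The ubiquitin-like modifier Isg15 and its protease Usp18 were lower in the mean after DDE without passing. Isg15 had 10.42, 10.41, 10.84 and 9.43 in controls and 9.57, 10.05, 9.58 and 9.23 after DDE. Every DDE liver was below controls 1 to 3, and only control 4 lay among the DDE livers. The difference was -0.67 (adjusted p = 0.4), and -0.95 without control 4 (adjusted p = 0.0829). Usp18, which also dampens signalling at the type I receptor, had 9.49, 9.63, 10.29 and 8.53 in controls and 8.73, 8.91, 8.49 and 8.19 after DDE. Its difference was -0.91 (adjusted p = 0.299), -1.22 without control 4 (adjusted p = 0.0663) and -0.64 without the stained spot of control 3 (adjusted p = 0.377). Leaving control 4 out raised the count of members lower at an unadjusted p under 0.05 from 2 to 7. The count of lower members past the threshold stayed at 1. Over all 42957 probes, calls lower past the threshold rose too, from 284 to 428 (limma). The share of all genes lower at an unadjusted p under 0.05 was not counted in that fit.

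Antiviral effectors gave 0 calls among 13 genes, with 4 positive and 9 negative mean differences. Oasl1, a ribosome-associated relative of the oligoadenylate synthetases, had 10.35, 9.64, 10.46 and 9.07 in controls and 9.16, 8.35, 9.59 and 9.0 after DDE (-0.86, adjusted p = 0.362). Ifit3, a partner of the other IFIT proteins, had 8.79, 8.67, 10.63 and 9.11 in controls and 9.02, 9.14, 8.97 and 8.43 after DDE. The difference of -0.41 became 0.16 with stained spots left out, as its values in controls 3 and 4 were both stained. Mx2, a dynamin-like GTPase, had 9.38 in control 3, a stained spot, and 7.39 to 7.98 in the other 7 livers, and passed background in 2 controls and 1 DDE liver.

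Genes near background make up much of this group. Ifit1, which binds RNA lacking the cap methylation of host transcripts, passed background in 2 controls and 3 DDE livers and spanned 7.47 to 8.04 over all 8. Oas2 was above it in 1 control and 2 DDE livers, Oasl2 in 2 and 3, and Oas3 in 0 and 0. Rsad2, the radical enzyme viperin, had 7.64, 7.68, 7.82 and 7.60 in controls and 7.98, 8.07, 8.34 and 7.81 after DDE. Only DDE 4, at 7.81, lay within the control range, and the difference of 0.37 did not pass (adjusted p = 0.188). It passed background in 2 controls and 3 DDE livers, and its spot in DDE 3 was stained.

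Mx1, a GTPase that blocks influenza viruses, had 8.48, 8.42, 8.77 and 7.79 in controls and 8.05, 8.26, 8.16 and 7.57 after DDE (-0.36, interval -0.92 to 0.21). Isg20, an exonuclease, had 9.14, 9.0, 9.52 and 8.81 in controls and 9.50, 9.69, 9.84 and 9.10 after DDE (0.42, adjusted p = 0.43). Its second probe read 7.91 to 8.59 in controls and 8.65 to 9.52 after DDE, without overlap, and did not pass either (0.71, adjusted p = 0.189). Bst2, the membrane protein tetherin that holds budding viruses to the cell, had 14.65, 13.99, 14.10 and 14.28 in controls and 15.03, 13.95, 15.43 and 15.15 after DDE. Thus 3 DDE livers were above every control and DDE 2 was below them all (0.64, adjusted p = 0.453). Without DDE 2 the difference was 0.95 (adjusted p = 0.0946).

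Immunity-related GTPases, which attack the vacuoles of intracellular pathogens, held the 1 member that fell. Ifi47 had 11.37, 11.19, 11.60 and 10.77 in controls 1 to 4 and 10.11, 9.60, 9.81 and 9.01 in DDE livers 1 to 4, so the lowest control was 0.66 above the highest DDE liver. It went from 11.23 ± 0.35 to 9.63 ± 0.46 (SD, n = 4), 3.03-fold lower (adjusted p = 0.0307, interval -2.23 to -0.97). The spots of controls 3 and 4 were stained, and with stained spots left out the difference was -1.65 (adjusted p = 0.051). The call was also lost without control 1 (adjusted p = 0.0702), control 2 (0.0859), control 3 (0.0793), DDE 2 (0.0961) or DDE 3 (0.0715), with ordinary t statistics (0.0732) and with the replicate block (0.0575). It held in 11 of 19 alternatives, and the difference stayed between -1.76 and -1.39 in all 19.

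The other GTPases did not pass. Igtp at its brightest probe had 11.48, 11.17, 11.61 and 10.40 in controls and 11.04, 10.46, 11.26 and 10.98 after DDE (-0.23, interval -0.92 to 0.46). Averaged over its 10 probes it went from 11.02 ± 0.52 to 10.69 ± 0.23 (SD, n = 4). The differences of single probes ran from -0.70 to 0.07, and 9 of 10 were negative. Irgm1, a regulator of the other GTPases, differed by 0.05 (interval -0.94 to 1.04), with the high values 10.51 in control 1 and 10.61 in DDE 1.

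Gbp3, a guanylate-binding protein, had 8.51, 8.26, 8.19 and 7.80 in controls and 7.89, 7.81, 7.97 and 7.57 after DDE (-0.38, adjusted p = 0.337). Gbp2 had 8.57, 8.12, 7.40 and 7.72 in controls and 8.31, 8.46, 8.86 and 12.56 after DDE. Its difference of 1.60 (interval -0.64 to 3.83) became 0.59 with the lone spot of DDE 4 left out. The 2 related genes therefore had mean differences of opposite sign, and 0 of the 2 passed (limma).

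Chemokines that draw T cells through the receptor CXCR3 were higher in the mean after DDE at their brightest probes without passing. Cxcl10 had 9.37, 8.93, 9.11 and 11.04 in controls and 10.37, 10.49, 11.69 and 9.76 after DDE (0.97, adjusted p = 0.529). Every DDE liver was above controls 1 to 3, and control 4, on a stained spot, was higher than 3 of the 4 DDE livers. The difference was 0.59 without DDE 3 (adjusted p = 0.697) and 1.71 without control 4 and DDE 4 (adjusted p = 0.0858), the lowest and highest of 19 alternatives. Cxcl9 had 9.82, 8.73, 8.40 and 8.13 in controls and 9.30, 8.69, 10.18 and 9.35 after DDE (0.61, adjusted p = 0.609), with stained spots in DDE 3 and DDE 4. Without stained spots the difference was 0.23 (adjusted p = 0.871). Its second probe differed by -0.41, with a stained lone spot in control 1, and the mean of both probes by 0.10 (adjusted p = 0.936).

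The remaining interferon-induced genes included Ifi27l2a, a small membrane protein of the Ifi27 family. It had 11.83, 11.67, 11.64 and 11.04 in controls and 12.51, 12.51, 12.30 and 12.09 after DDE. All DDE livers were above all controls, none of these spots was stained, and the mean went from 11.55 ± 0.35 to 12.35 ± 0.20. The difference of 0.81 (1.75-fold, interval 0.36 to 1.25) missed the threshold (adjusted p = 0.0764). It passed in 3 of 19 alternatives, with dim probes left out (adjusted p = 0.0416), with array weights (0.0234) and with control 4 and DDE 4 both left out (0.0279).

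Its relative Ifi27 had 13.19, 13.41, 13.52 and 13.04 in controls and 13.54, 13.37, 13.82 and 13.20 after DDE (0.19, interval -0.19 to 0.57). Xaf1, a proapoptotic protein, differed by -0.01 (interval -0.59 to 0.57). Ifi35, a leucine zipper protein, had 10.17, 10.02, 9.18 and 8.58 in controls and 10.01, 10.04, 8.42 and 9.89 after DDE. Livers of both groups split into values near 10 and values of 9.18 or less for this gene, and the difference was 0.10 (interval -1.06 to 1.26).

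Genes of the pathway outside the list were read from a second list of 89 symbols, of which 86 were measured. Of these, 4 rose and 1 fell (limma, adjusted p under 0.05), beside 2.58% and 0.774% of all genes, and the median difference was 0.01. Among 9 interferon genes 0 passed, and Ifnb1 and Ifng, for interferon beta and gamma, were above background in 0 of 8 livers. The smallest p-values belonged to Ifna2 (-0.57, adjusted p = 0.457) and Ifna1 (0.33, adjusted p = 0.523), whose values above background in controls 3 and 4 and in DDE 3 were on stained spots. Of 9 receptors and kinases 0 passed, though 8 had a positive mean difference. The share of all genes with a positive difference was not counted. The median difference of all genes above background in all 8 livers was 0.14. Ifnar2, a chain of the type I receptor, had 10.88 to 11.90 in controls and 12.37 to 12.74 after DDE (0.95, adjusted p = 0.0903). Tyk2 had 8.40 to 8.80 in controls and 9.0 to 9.06 after DDE (0.37, adjusted p = 0.114), again without overlap.

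Of 12 genes of upstream sensing, 2 rose and 1 fell. Ikbke, a kinase that activates Irf3 and Irf7, had 7.91, 7.95, 7.99 and 7.73 in controls and 9.50, 9.83, 9.80 and 10.45 after DDE. The spot of DDE 4 was stained, and the log2 difference of 2.0 became 1.81 without it. Ikbke rose 4.0-fold (adjusted p = 0.00737) and lost its call only with the replicate block (0.0726). Ticam1, the adaptor of the double-stranded RNA receptor Tlr3, rose from 7.79 ± 0.25 to 8.54 ± 0.12 (adjusted p = 0.0348), with 2 of 4 controls above background. Ticam1 passed in 9 of 19 alternatives. Its call was lost without control 2, control 3 or any 1 of the DDE livers (adjusted p from 0.0578 to 0.109), without control 4 and DDE 4 (0.0628), with an intensity trend (0.0903), with ordinary t statistics (0.0729) and with the replicate block (0.0917). Tlr7, an endosomal receptor for single-stranded RNA, had 9.20, 9.12, 9.08 and 9.01 in controls and 8.49, 8.45, 8.15 and 8.15 after DDE (1.73-fold lower, adjusted p = 0.0148), and missed the threshold without control 2 (0.0518), with an intensity trend (0.054) and with the replicate block (0.0688). With the mean of the 2 Tlr7 probes the difference was -0.39 (limma, adjusted p = 0.0322), against -0.79 at the brightest probe. The second probe thus did not show a fall of like size.

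Among 6 negative regulators 1 rose. Pias1, an inhibitor of STAT signalling, went from 8.37 ± 0.18 to 9.27 ± 0.21 at 1 of its 3 probes (adjusted p = 0.0212). With the mean of its probes the difference was 0.37 (adjusted p = 0.0855), and the call was lost without control 3, DDE 1, DDE 2 or DDE 3 (adjusted p from 0.0616 to 0.0629), with an intensity trend (0.0536) and with the replicate block (0.0843). Of 50 other induced genes 1 rose. Ifitm2, a membrane protein that blocks viral entry, had 9.41, 9.54, 9.62 and 9.99 in controls and 11.11, 11.81, 11.79 and 11.24 after DDE, 3.60-fold higher (adjusted p = 0.00984), a call lost with the replicate block (0.074). Its relatives did not pass, with 0.58 for Ifitm3 (adjusted p = 0.241) and -0.46 for Ifitm1 (adjusted p = 0.428).

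Further GTPases had lower means after DDE without passing, chosen here after their values were seen for their kinship with Ifi47. Gbp6 had 9.29, 9.92, 9.70 and 8.52 in controls and 8.56, 7.67, 8.20 and 7.63 after DDE (-1.34, adjusted p = 0.104). Tgtp2 had 10.83, 9.96, 10.15 and 8.20 in controls and 9.22, 8.64, 7.96 and 7.99 after DDE (-1.33, adjusted p = 0.349). In both genes control 4 was the 1 control that lay among the DDE livers. Iigp1 differed by -0.89 (adjusted p = 0.206) and Irgm2 by -0.71, while Gbp5 differed by 0.34 and Gbp7 by 0.10 near background.

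Markers of immune cells also differed between single livers. Some markers had lone spots too, so sums of linear signal are given for the genes without one, with the sums over the whole lists after them. For 10 of 11 Kupffer cell markers the sum was 17175, 13146, 11461 and 7554 in controls 1 to 4 and 7686 to 9567 in DDE livers. For 8 of 10 T and NK cell markers it was 16451, 11585, 8137 and 4670 in controls and 4794 to 8314 in DDE livers. Cd4, the probe with the highest signal of these 8, weighed most in the sums (13.55 in control 1 and 11.29 in control 4). Control 4 was thus the lowest control and control 1 the highest in both lists. The 5 liver endothelium markers had the same order, with 15650, 14965, 12372 and 7900 in controls 1 to 4 and 11011 to 13654 in DDE livers. The B and plasma cell and the general leukocyte lists also had control 4 lowest and control 1 highest. In the hepatocyte, monocyte and dendritic cell lists control 4 was lowest but control 2 highest (204376, 12881 and 26144). In the 3 stellate and bile duct cell markers without a lone spot, control 1 was lowest (8315) and control 3 highest (11130). Among all genes above background in all livers, control 4 was the lowest control in 68.9% and control 1 the highest in 38.5%. These shares give the lowest and the highest control and not the order of all 4. Over the whole lists, Adgre1 in DDE 2 (11.53) took the Kupffer cell sum of that liver to 12020, and Cd3g (10.98) and Cd8a (11.58) in control 2 took its T and NK cell sum to 16666. All 3 were stained lone spots. The 4 neutrophil markers without a lone spot summed to 16652 in control 3 and 6719 to 14574 in the other 7 livers, and a stained spot of S100a8 (13.54) took control 3 to 28563. The probe with the highest signal of these 4, Csf3r (13.90 in control 3), weighed most in the sums. S100a9, Ly6g and Retnlg were instead highest in DDE 3 (10.83, 9.77 and 8.76). The 4 B and plasma cell markers without a lone spot summed to 639 to 984 over all 8 livers, and a stained spot of Mzb1 (13.76) took control 4 to 14512. Adgre1, Cd3g, Cd8a, Cd4, S100a8, Csf3r, S100a9, Ly6g, Retnlg and Mzb1 were singled out after their values were seen. Of 63 markers 0 passed the threshold (limma), and an unadjusted p under 0.05 was reached by 2 that were higher and 3 that were lower, beside 11.4% and 4.57% of all genes. Ncr1, Klrb1c and Gzmb of the T and NK list, Ms4a1 and Cd79a of B cells, and Ccr2 and Cx3cr1 of monocytes were above background in 0 of 8 livers. The same held for Ccr9, Flt3, Xcr1 and Itgax, 4 of the 6 dendritic cell markers. The part of these cells in the values above was not tested.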

How the data were processed

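Liver RNA of 8 mice was measured on 1-colour arrays, from Cy3-labelled cRNA per the labels' protocols. The deposited value table holds log2 signals, as its range of values shows; how the scanner signals were corrected and normalized is not given in the sources used here. The 42957 probes were joined to symbols by the supplied annotation table, in which 33009 carry 1 symbol. No probe, promoter or protein sequences were used, so the planned promoter motif count was not run. For genes of like signal, those above background on all arrays were used.

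Probes were tested with limma 3.58.1 in R 4.3.3 (lmFit, eBayes, no covariate, two-sided), with Benjamini-Hochberg adjustment over all probes; the procedure was tested on simulated data. Background was the 0.95 quantile of 1634 receptor probes per array, stained spots left out. Stained spots were those whose neighbourhood (7 rows by 5 columns, rows of 85 spots) had a median deviation beyond 0.3; a lone spot was over 2 from the median of the other 7 arrays. Alternatives were quantile normalization, 75th percentile centring, dim probes left out, limma's trend and robust options, weighting of arrays, a block on replicate number, each array left out, stained spots left out, control 4 and DDE 4 left out, the mean of a gene's probes and ordinary t statistics. Leaving out lone spots, and markers with one, was added after seeing the data. All members were named; of the other pathway genes, those past the threshold, or per group those with the smallest p or highest signal; exceptions are named as such. The members and lists were chosen with earlier results of these data known.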

Additional observations from a re-analysis of the deposited data

Results flagged for a closer look

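In 8 of 76 sets of 4 livers (38 genes in each group), 1 liver stood far from the other 3. For normally distributed values, chance alone passes this test in about 1 of 20 sets. The share of all genes that pass it was not counted, and 15.5% of all genes had a lone spot. The count is therefore not read as a trait of the interferon genes. The highest value stood apart in 7 of the 8 sets and the lowest in 1. On stained spots were Ifih1 in control 2 (15.05, next 11.08), Dhx58 in DDE 4 (15.06, next 8.38), Zbp1 in DDE 3 (11.08, next 8.14), Eif2ak2 in control 4 (9.37, next 7.26) and Ifit2 in control 4 (14.29, next 7.94). On spots outside stained patches were Gbp2 in DDE 4 (12.56, next 8.86), Irf2 in DDE 2 (10.02, next 9.67) and Ifi35 in DDE 3 (8.42, next 9.89). Irf2 also passed the threshold without DDE 2, with a difference of 0.73.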

How the results depend on the processing

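Of 717 member differences recomputed under 19 alternatives, 671 kept their sign and their side of the threshold, 33 changed sign without passing in either fit, 9 lost a call (Irf2 or Ifi47), 4 gained one (Ifi27l2a or Irf3) and 0 reversed a call. Members higher past the threshold (1) became 2 with dim probes left out, array weights or control 4 and DDE 4 left out, and 1 to 2 with each array left out. Members lower (1) became 0 with ordinary t statistics or stained spots left out, and 0 to 1 with each array left out. Members lower at an unadjusted p under 0.05 (2) became 5 with array weights, 6 with control 4 and DDE 4 left out, 1 with ordinary t statistics and 1 to 7 with each array left out. Other pathway genes higher (4) became 8 with dim probes left out or array weights, 2 with an intensity trend, 7 with control 4 and DDE 4 left out and 2 to 6 with each array left out. Those lower (1) became 3, 2, 0 and 2 under these settings in turn (dim, weights, trend, control 4 and DDE 4), and 0 to 3 with each array left out. Calls over all probes moved with these settings too. In the same order, probes called higher went from 1005 of 42957 to 1500 of 18109, 1607, 399 and 1265. Probes called lower went from 284 to 518, 533, 112 and 443. Shares of all genes at an unadjusted p under 0.05 were not counted under the alternatives. With the replicate block all 4 counts of calls among members and other pathway genes became 0, with 9 probes called of 42957. In that fit 6 members were lower at an unadjusted p under 0.05. Same-numbered arrays correlated by 0.35, 0.24, 0.21 and -0.12. For 3 of 4 numbers, the control array correlated best with the DDE array of its own number. Control 4 correlated best with a DDE array of another number (0.27), and the best match of each DDE array was not examined. The 3 matches are a hint of pairing from the data and not from the labels. Stained shares were also lowest on both arrays numbered 1 and highest on both numbered 4. As number 4 did not correlate, the block was kept as an alternative, and whether the numbers pair the mice was not settled. The median spread was 0.44 for controls and 0.31 for DDE livers as an SD, 1.03 and 0.72 as a range, and 0.25 to 0.50 and 0.20 to 0.36 with each liver left out. Dim probes left out removed 5 members. The planned promoter alternatives were not run. Signals near background (above it in fewer than 6 of 8 livers) limit Eif2ak2, Ifit1, Ifit2, Mx2, Oas2, Oas3, Oasl2 and Rsad2.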

Other observations

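These genes, other than Ifna5, were chosen after their values were seen. Ifna5, an interferon alpha gene with 1 probe, gave 12.52 in control 2, 12.36 in control 3 and 11.03 in DDE 4, and 7.02 to 7.61 in the other 5 livers, with 0 of these spots in a stained patch. Ifna4, with 7.16 to 7.24, stayed below background in all 8. Ifne, interferon epsilon, had 10.49 in control 4 and 8.26 in control 3 and 7.12 to 7.31 in the other 6 livers, and both high spots were stained. Cxcl11, another ligand of CXCR3, read 15.77 to 15.97 in all 8 livers at the brightest of its 2 probes, so close to the highest value of 16 that a rise could not be seen. Whether this signal comes from Cxcl11 was not tested.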
